A study of Homo sapiens with 16 samples.

Results

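Genistein, a soy isoflavone, was compared with estradiol in T-47D, an established breast cancer cell line that carries estrogen receptor alpha. The comparison holds 4 of the 16 RNA sequencing libraries, taken by their labels: 2 from T-47D cells given 100 nM genistein and 2 from cells given 10 nM estradiol, each for 8 h. The doses differ, so every difference below is between these 2 exposures and not between equal amounts of the compounds. All cells had first spent 5 days in RPMI-1640 without phenol red and with 10% serum stripped of steroids by charcoal, in 100 mm dishes. For reference, 2 T-47D libraries from cells given 0.02% DMSO, the vehicle, are shown beside them, and the same compounds at the same doses in the endometrial cancer line ECC-1 (2 libraries each) serve for 1 test. Whether the 2 libraries of a group came from separate cultures is not stated in the labels, and p-values here speak only for the spread between these libraries, which may be technical. All 21453 gene symbols of the files were considered, and the 13827 that passed a filter on low values were tested.

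Estradiol binds the estrogen receptor, a transcription factor that then recruits coactivators at its binding sites and raises or lowers the transcription of target genes. Genistein binds the same receptor and is counted among the phytoestrogens. It binds the beta form of the receptor more tightly than the alpha form and, at high doses, also inhibits tyrosine kinases. In breast cancer cells, genes such as GREB1, PGR, TFF1 and CXCL12 are known to be induced through the alpha receptor.

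Levels are scaled RPKM (reads per kilobase of transcript per M reads, divided by a factor for each library), a level per transcript length. Differences are log2 differences of level, genistein minus estradiol, so that a negative value means a lower level with genistein. Each comes with a standard error (SE) or a 95% interval from limma, fitted over all 16 libraries on log2(scaled RPKM + 0.5), a scale that understates the changes of genes at low levels. Depth, estimated from the steps between low values, was 18.53 to 24.27 M reads in the 4 libraries. Of 16 markers of luminal breast epithelium, 14 reached 1 scaled RPKM in at least 1 of the 4, with GATA3 at 238.8 to 314.5, while TFAP2B and SCGB2A2 did not. All 10 markers of endometrial epithelium stayed under 1 in all 4 libraries, as did 10 of 11 fibroblast, 8 of 11 leukocyte and 8 of 9 endothelial markers. Both estradiol libraries have features of their own. The first stood apart from the other T-47D libraries, with a median correlation across genes of 0.9801 against 0.9893 to 0.9939 for the others. Some results are also given without it. The second held transcripts of pancreatic digestive enzyme genes, at a summed level of 31.2 scaled RPKM over 20 such genes against 3.71 to 5.11 in the other 3 libraries.

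CITED1 was the only gene of the 13827 (0.00723%) that passed an adjusted p of 0.05 in limma. CITED1 encodes a transcriptional coactivator that can bind the estrogen receptor. Its level was 0.429 and 0.35 scaled RPKM in the genistein libraries and 2.13 and 1.7 in the estradiol libraries. The DMSO libraries held 0.288 and 0.141, so that both genistein libraries lay above the controls by less than they lay under the estradiol libraries. The log2 difference was -1.44 (SE 0.165, 95% interval -1.79 to -1.09, limma adjusted p = 0.00435), a 2.71-fold higher level with estradiol on that scale. Against DMSO, estradiol raised CITED1 by 1.76 (limma adjusted p = 1.87e-05), while the change with genistein was 0.32 (limma adjusted p = 0.959). At the estimated depths, these levels correspond to about 6.98 and 4.99 reads with genistein, 41.7 and 28 with estradiol, and 5.95 and 1.99 with DMSO. The call ended without the first estradiol library (-1.31, limma adjusted p = 0.122) and without the second genistein library (-1.37, limma adjusted p = 0.0668). It also ended with a pseudocount of 0.1 (-2.04, limma adjusted p = 0.21), with array weights (limma adjusted p = 1), in a fit on the estradiol and genistein groups only (limma adjusted p = 1) and in a fit on the 8 T-47D libraries (limma adjusted p = 0.116). In bulk RNA, fewer cells with a transcript and less of it per cell cannot be told apart.

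**Figure D1:**
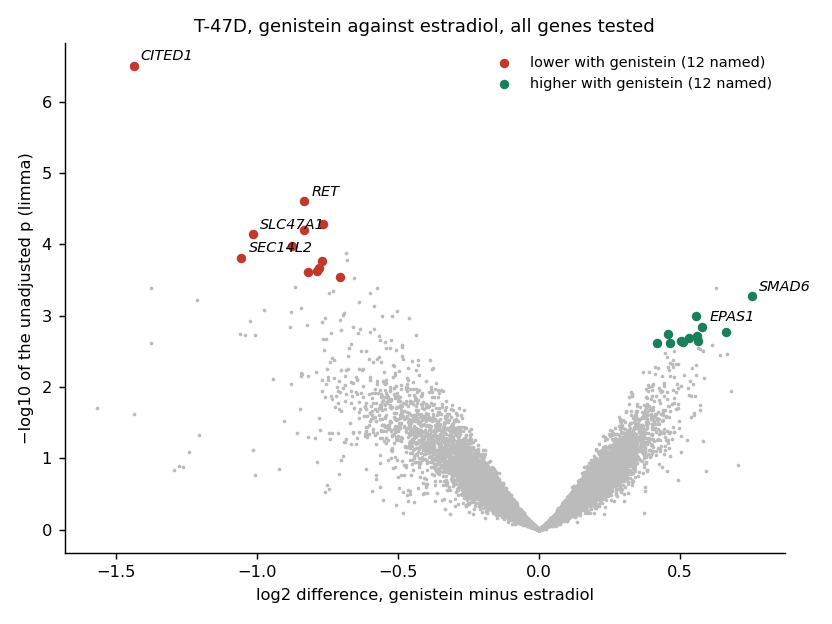
Each point is 1 of 13827 genes, with the log2 difference of genistein minus estradiol in T-47D on the x axis and −log10 of the unadjusted limma p on the y axis, and the 12 named genes of each direction in color. CITED1 stands highest, at a log2 difference of -1.44.

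At an unadjusted p under 0.05, 1004 genes (7.26%) differed between the compounds, 673 of them (4.87%) lower and 331 (2.39%) higher with genistein. This count depended on the fit and the libraries: it was 257 in a fit on the estradiol and genistein groups only, 277 with array weights, 679 in a fit on the 8 T-47D libraries, 326 without the second genistein library and 4380 without the second estradiol library. Counts of list members at this threshold, given below, are to be read with that range and beside the shares of all genes. Without the first estradiol library, 0 genes passed the adjusted limma test (0%), and 819 (5.92%) had an unadjusted p under 0.05, with 394 (2.85%) lower and 425 (3.07%) higher. Genes next to CITED1 are therefore given as values that did not pass the adjusted test. They are the 11 with the lowest p on the lower side whose average was 1 scaled RPKM or more and whose genistein and estradiol libraries did not overlap: RET, TEKT1, KRT13, SLC47A1, PTGES, SEC14L2, SGK3, PDZK1, NKAIN1, C19orf60 and C6orf127. RET, the gene of a receptor tyrosine kinase for ligands of the GDNF family, stood at 0.634 and 0.556 with genistein, 1.29 and 1.62 with estradiol and 0.363 and 0.308 with DMSO (log2 difference -0.83, SE 0.139, limma adjusted p = 0.17). KRT13, a keratin gene, stood at 2.58 and 2.73 with genistein, 5.49 and 4.78 with estradiol and 0.58 and 0.681 with DMSO. In both, the genistein libraries lay above the DMSO libraries without overlap, as well as under the estradiol libraries, which the choice of genes required.

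The same order held for 7 of the others. SLC47A1, which encodes an efflux transporter of organic cations, stood at 1.23 and 2.16 with genistein, 3.34 and 4.38 with estradiol and 0.328 and 0.482 with DMSO (log2 difference -1.02, 95% interval -1.42 to -0.62, limma adjusted p = 0.2). PTGES, the gene of a prostaglandin E synthase, stood at 17.9 and 15.5, 26.8 and 35.8 and 7.92 and 6.29 scaled RPKM in the same order. SEC14L2, which encodes a lipid-binding protein, stood at 1.93 and 2.17, 4.19 and 5.5 and 1.3 and 1.05 (log2 difference -1.06, SE 0.21). In all 3, both genistein libraries were above both controls. That they were under both estradiol libraries is part of how the genes were chosen. SGK3, a kinase gene of the SGK family, stood at 9.79 and 10.2 with genistein, 15.2 and 19.9 with estradiol and 4.52 and 3.38 with DMSO. NKAIN1, whose protein interacts with the sodium pump, stood at 2.92 and 3.12, 4.63 and 6.7 and 0.496 and 0.633 scaled RPKM. For PDZK1, a scaffold protein gene, the levels were 3.73 and 3.81, 6.57 and 7.1 and 2.15 and 1.59. The pseudogene PDZK1P1 shares sequence with PDZK1, and how reads were divided between them is uncertain. C6orf127, named CLPSL1 in RefSeq, stood at 0.747 and 0.73, 1.68 and 1.37 and 0.585 and 0.368.

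TEKT1 and C19orf60 did not follow this order. TEKT1, a gene of ciliary microtubules, stood at 1.03 and 0.894 with genistein, 1.86 and 2.12 with estradiol and 1.93 and 1.52 with DMSO. Here the genistein libraries lay under both other groups, and the changes against DMSO were -0.60 with genistein (limma adjusted p = 0.0625) and 0.17 with estradiol (limma adjusted p = 0.604). C19orf60 stood at 4.13 and 3.93 with genistein, 9.18 and 6.11 with estradiol and 4.61 and 4.09 with DMSO. Its log2 difference was -0.82, and -0.54 without the first estradiol library, which was the higher one.

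**Figure D2:**
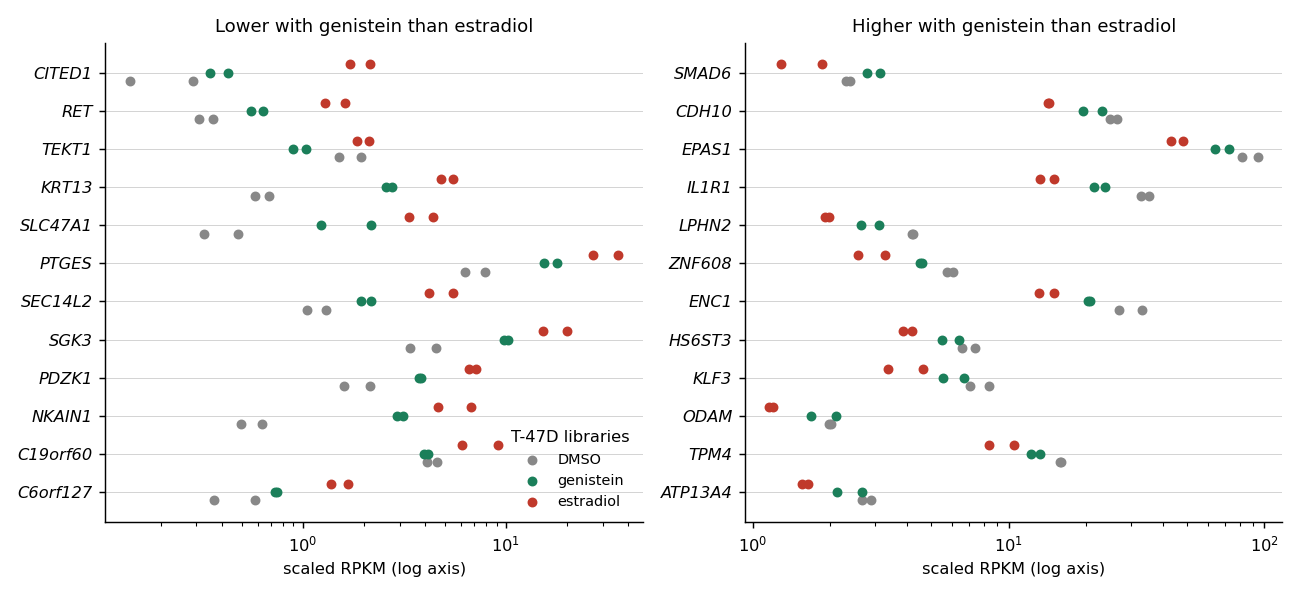
Scaled RPKM of each T-47D library (log axis) for the 12 genes lower with genistein than with estradiol and the 12 higher, with 1 point for each library of the DMSO, genistein and estradiol groups. For KRT13, PTGES and NKAIN1 the genistein points sit between those of DMSO and estradiol, while for TEKT1 they sit under both.

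Promoter sequences are shown for CITED1, the gene that passed the test, and for SEC14L2 and PDZK1. Only 8 of the 12 lower genes had a window to search. SEC14L2 and PDZK1 are the 2 of these 8 whose window holds a half-site of the estrogen response element. They come from RefSeq on build GRCh38.p14, not the hg19 build of the files, and run from 250 bases before to 50 bases after the start of the gene, 5′ to 3′ along its strand. Capitals mark the half-site GGTCA or its reverse complement.
CITED1 (chrX:72307108-72307407, minus strand): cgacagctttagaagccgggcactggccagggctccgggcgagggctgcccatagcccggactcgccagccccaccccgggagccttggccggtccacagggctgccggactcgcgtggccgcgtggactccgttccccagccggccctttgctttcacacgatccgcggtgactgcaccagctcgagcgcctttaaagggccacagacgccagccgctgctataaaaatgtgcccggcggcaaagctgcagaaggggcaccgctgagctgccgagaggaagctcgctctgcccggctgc
SEC14L2 (chr22:30396768-30397067, plus strand): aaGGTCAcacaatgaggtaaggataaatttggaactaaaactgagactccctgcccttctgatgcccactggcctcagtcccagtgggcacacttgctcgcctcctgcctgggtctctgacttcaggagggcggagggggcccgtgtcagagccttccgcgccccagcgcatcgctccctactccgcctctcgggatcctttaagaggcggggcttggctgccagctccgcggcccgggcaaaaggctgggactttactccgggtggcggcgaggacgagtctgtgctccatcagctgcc
PDZK1 (chr1:145707351-145707650, minus strand): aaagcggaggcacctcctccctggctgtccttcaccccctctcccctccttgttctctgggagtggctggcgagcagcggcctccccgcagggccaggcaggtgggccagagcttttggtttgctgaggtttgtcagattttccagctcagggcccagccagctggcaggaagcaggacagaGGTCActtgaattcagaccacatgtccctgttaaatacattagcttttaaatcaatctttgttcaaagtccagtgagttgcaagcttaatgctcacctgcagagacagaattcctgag
The full element, searched on both strands as GGTCA, any 3 bases and TGACC, was found in 0 of the 8 windows matched among the 12 lower genes and in 0 of the 10 matched among the 12 higher, against 0.057% of all 35116 promoters of the same length. The half-site GGTCA, which also lies inside the full element, was found in 2 of the 8 and 1 of the 10, against 37.4% of all promoters. A match is a string of letters and not a measured binding site, and much receptor binding is known to lie far from gene starts.

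No gene passed the adjusted limma test as higher with genistein (0%). The 12 with the lowest p, chosen in the same way, were SMAD6, CDH10, EPAS1, IL1R1, LPHN2, ZNF608, ENC1, HS6ST3, KLF3, ODAM, TPM4 and ATP13A4, with log2 differences from 0.42 to 0.75 and limma adjusted p-values from 0.32 to 0.481. EPAS1, which encodes a hypoxia-inducible factor, stood at 64.1 and 72.6 with genistein, 48 and 43.1 with estradiol and 81.9 and 94.3 with DMSO. IL1R1, the interleukin 1 receptor gene, stood at 21.6 and 23.9, 13.2 and 15.1 and 32.9 and 35.4 in the same order (log2 difference 0.66, 95% interval 0.29 to 1.03). In both, genistein lay between the DMSO and the estradiol libraries without overlap. Estradiol lowered EPAS1 by a log2 change of -0.94 (limma adjusted p = 0.0016) and IL1R1 by -1.24 (limma adjusted p = 0.000572), and genistein had changes of -0.36 and -0.58 that did not pass the test.

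The cadherin gene CDH10 stood at 23.2 and 19.6 with genistein, 14.3 and 14.4 with estradiol and 26.6 and 24.8 with DMSO. For ENC1, the gene of an actin-binding protein, the levels were 20.4 and 20.9, 13.2 and 15.1 and 27.1 and 33.2 in the same order. TPM4, a tropomyosin gene, stood at 13.2 and 12.2, 10.5 and 8.41 and 16 and 15.9. All 3 genes had their genistein libraries between the other groups. SMAD6, an inhibitor of BMP signalling, was different. It stood at 2.79 and 3.14 with genistein, above the 1.86 and 1.29 with estradiol and also above the 2.31 and 2.4 with DMSO (change with genistein 0.28, limma adjusted p = 1). ODAM, which encodes an odontogenic ameloblast-associated protein, stood at 2.11 and 1.7 with genistein and 1.2 and 1.16 with estradiol, and its DMSO libraries (1.99 and 2.02) lay within the genistein range.

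A panel of 10 genes, most of them known estrogen targets in breast cancer cells, was read in full. Of its members, 4 were lower and 0 higher with genistein at an unadjusted p under 0.05 (4.87% and 2.39% of all genes), and 0 passed the adjusted limma test. TFF1, which encodes a secreted trefoil peptide, stood at 2 and 0.8 with genistein, 4.4 and 3.97 with estradiol and 0.392 and 0 with DMSO. Its log2 difference was -1.38 (95% interval -2.02 to -0.73, limma adjusted p = 0.302). IGFBP4, which encodes a protein that binds insulin-like growth factors, stood at 156.1 and 162.7, 231.4 and 216.1 and 88 and 90.3 (log2 difference -0.49, 95% interval -0.77 to -0.20). In both genes the genistein libraries lay between the other groups. GREB1, a coregulator gene of the receptor, stood at 37.8 and 51.1 with genistein, 64.5 and 57.2 with estradiol and 11.2 and 12.8 with DMSO (log2 difference -0.46, 95% interval -0.91 to -0.01, and -0.25 without the first genistein library). MYC, a growth-promoting transcription factor gene, stood at 11.5 and 11.5, 14.7 and 14.1 and 3.07 and 2.95 (log2 difference -0.31, 95% interval -0.65 to 0.02). Both again lay between the groups, with an interval that ends near 0. Beside TFF1, IGFBP4 and GREB1, the member lower at an unadjusted p under 0.05 was PDZK1, given above, while MYC did not reach it.

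PGR, the progesterone receptor gene, did not show that order. It stood at 116.8 and 164.6 with genistein and 113.0 and 162.7 with estradiol, against 58.4 and 68.5 with DMSO, and the first library was the lower one in all 3 groups. The log2 difference was 0.03 (95% interval -0.36 to 0.42). CXCL12, a chemokine gene, stood at 37.4 and 40.8 with genistein and 51.6 and 49.3 with estradiol, against 3.85 and 2.27 with DMSO. Its log2 difference of -0.36 (95% interval -0.84 to 0.11) stands beside changes against DMSO of 3.51 with genistein and 3.88 with estradiol. CCND1, the cyclin D1 gene, stood at 44.9 and 38 with genistein and 47.3 and 39.2 with estradiol. ESR1, the gene of the alpha receptor itself, stood at 36.5 and 44.9 and 31.4 and 43.8. The groups overlapped in both. CYP1A1, a cytochrome gene induced through the aryl hydrocarbon receptor, varied within the groups, at 7.06 and 4.18 with genistein and 4.2 and 2.34 with estradiol (95% interval of the difference -0.22 to 1.62).

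Against DMSO, 291 of all genes (2.1%) rose with estradiol and 108 (0.781%) with genistein at a limma adjusted p under 0.05. Both compounds are set against the same DMSO libraries, and the estradiol libraries chose the genes that follow, so the values are placed side by side without a test of their likeness. The 12 largest rises with estradiol were CXCL12, TFF1, SUSD3, OLFM1, NKAIN1, KCNK5, STC2, KRT13, GREB1, SLC47A1, KCNH1 and MYC, and each also rose with genistein. The log2 change with genistein was 51.0% of that with estradiol for TFF1, the lowest share, and 90.6% for CXCL12, the highest. SUSD3, which encodes a membrane protein, stood at 16.7 and 17.5 with genistein, 25.9 and 20.6 with estradiol and 3.87 and 3.11 with DMSO. The glycoprotein hormone gene STC2 stood at 77.5 and 94.1, 133.4 and 126.0 and 28.5 and 20.1. OLFM1, which encodes a secreted olfactomedin, stood at 30 and 28.1, 36.2 and 56 and 8.4 and 6.34. In these 3 genes the genistein and estradiol libraries did not overlap, and the difference between the compounds did not pass the limma test (adjusted p = 0.707, 0.674 and 0.674). The potassium channel gene KCNH1 stood at 5.21 and 7.6 with genistein and 7.57 and 7.92 with estradiol, with overlapping groups, and KCNK5, another one, at 1.51 and 2.58 and 3.15 and 3.1 without overlap.

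**Figure D3:**
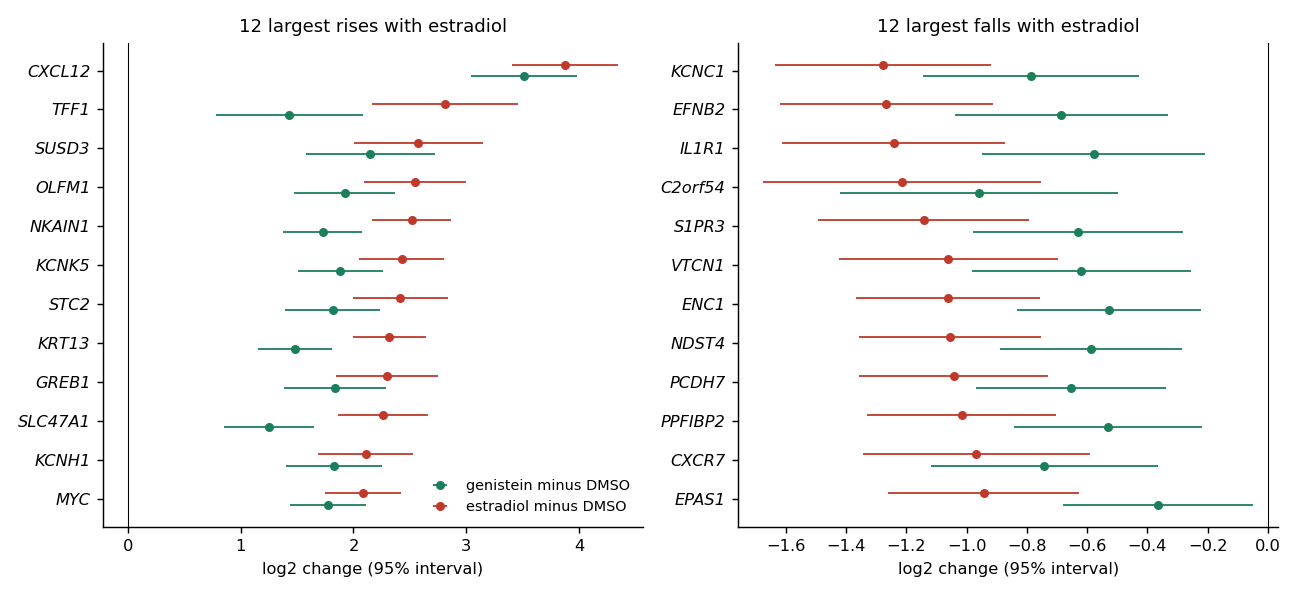
Log2 changes against DMSO with genistein and with estradiol (bars are 95% intervals from limma) for the 12 largest rises and the 12 largest falls with estradiol in T-47D. The genistein point is nearer to 0 than the estradiol point for each of the 24 genes, as for TFF1 (1.43 against 2.81), CXCL12 (3.51 against 3.88) and EPAS1 (-0.36 against -0.94), where estradiol libraries chose the genes and both changes share the DMSO libraries.

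On the other side, 154 of all genes (1.11%) fell with estradiol and 3 (0.0217%) with genistein. The 12 largest falls with estradiol were KCNC1, EFNB2, IL1R1, C2orf54, S1PR3, VTCN1, ENC1, NDST4, PCDH7, PPFIBP2, CXCR7 and EPAS1, where the log2 change with genistein ran from 38.6% of that with estradiol for EPAS1 to 79.0% for C2orf54. KCNC1, a potassium channel gene, stood at 2.58 and 2.76 with genistein, 2.28 and 1.33 with estradiol and 4.68 and 5.26 with DMSO, and was the 1 gene of the 12 that also fell with genistein at an adjusted p under 0.05 (-0.79, limma adjusted p = 0.0396). EFNB2, an ephrin ligand gene, stood at 4.57 and 5.5, 2.99 and 3.4 and 8.13 and 8.62 (log2 difference between the compounds 0.58, 95% interval 0.23 to 0.93). In both, genistein lay between the other groups. S1PR3, a receptor gene for sphingosine phosphate, stood at 4.86 and 4.33 with genistein, 3.15 and 2.99 with estradiol and 7.98 and 6.82 with DMSO. VTCN1, an immune checkpoint ligand gene, stood at 49.1 and 40.9, 34.5 and 31.3 and 75.4 and 63.4. These also lay in between, while CXCR7, a receptor gene for CXCL12, had overlapping groups at 0.915 and 0.549 with genistein and 0.359 and 0.763 with estradiol.

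The 3 falls with genistein were KCNC1, TMPRSS2 and SH2D4A. TMPRSS2, a membrane serine protease gene, stood at 2.92 and 2.55 with genistein, 2.4 and 3.2 with estradiol and 5.35 and 5.17 with DMSO. The compounds overlapped, with a log2 difference of -0.02 (95% interval -0.35 to 0.30). SH2D4A, which encodes an SH2 domain protein, stood at 5.35 and 4.15, 4.04 and 4.06 and 7.5 and 7.6. CYP2S1, a cytochrome gene, was 1 of the 8 largest rises with genistein and not 1 of the 12 with estradiol. It stood at 3.18 and 4.72 with genistein and 3.71 and 3.64 with estradiol, against 0.435 and 0.903 with DMSO (log2 difference between the compounds 0.07, 95% interval -0.59 to 0.73).

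Of 48 tested genes known as estrogen-induced in breast cancer cells, 20 were lower and 0 higher with genistein than with estradiol at an unadjusted p under 0.05 (4.87% and 2.39% of all genes), and 0 passed the adjusted limma test. The median difference of the list was -0.32, against 0.01 over all genes. Without the first estradiol library, 20 were lower and 0 higher (2.85% and 3.07% of all genes), with a median of -0.35. Against DMSO, 37 of the 48 rose with estradiol (2.1% of all genes) and 28 with genistein (0.781% of all genes), with median changes of 1.22 and 0.86. By library, the median level of the list above DMSO was 0.86 and 0.90 with genistein and 1.23 and 1.32 with estradiol, so the groups did not overlap. Of 30 genes known as estrogen-repressed, 10 were higher and 0 lower with genistein at an unadjusted p under 0.05 (2.39% and 4.87% of all genes), with a median difference of 0.24. Without the first estradiol library the counts were 9 and 0 (3.07% and 2.85% of all genes) and the median was 0.12. Against DMSO, 11 of the 30 fell with estradiol (1.11% of all genes) and 0 passed the test as lower with genistein (0.0217% of all genes), with median changes of -0.49 and -0.28. Both lists were drawn up with earlier results from these libraries known, and their counts are a description.

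**Figure D4:**
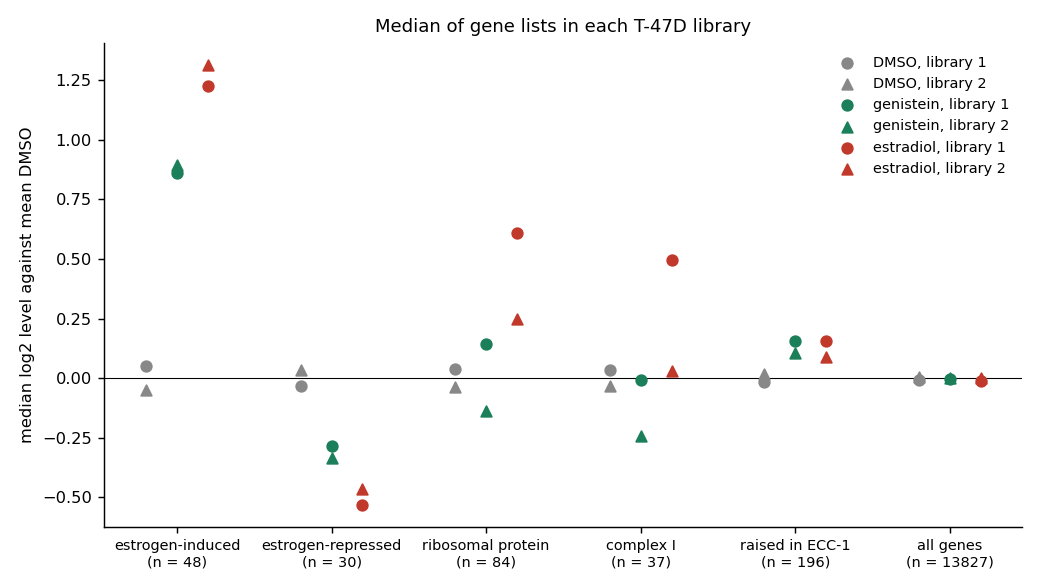
Median log2 level of gene lists in each T-47D library against the mean of the 2 DMSO libraries, with 1 point for each library. Estrogen-induced genes lie at 0.86 and 0.90 with genistein and 1.23 and 1.32 with estradiol, while cytosolic ribosomal protein genes reach 0.61 in the first and 0.25 in the second estradiol library.

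Gene lists of other pathways were read beside the 7.26% of all genes past an unadjusted p of 0.05. At that share, lists this short can hold few or no such genes. Of 18 feedback genes of receptor tyrosine kinases and MAPK signalling, 0 were past an unadjusted p of 0.05 in either direction, and the median difference was 0.02. PHLDA1, one of them, stood at 8.21 and 8.43 with genistein and 9.48 and 10.3 with estradiol, and the feedback inhibitor gene SPRY2 at 1.17 and 0.983 and 1.21 and 1.47. The 7 tested targets of the aryl hydrocarbon receptor, 22 p53 targets, 13 genes of fatty acid oxidation and PPAR signalling, 23 immediate early genes, 14 regulators of the BCL2 family and 20 aminoacyl-tRNA synthetase genes also held 0 past that threshold. NQO1, a quinone reductase gene, stood at 73.6 and 75.8 with genistein and 78.9 and 84.4 with estradiol, and the p53 target MDM2 at 43 and 44.4 and 35.4 and 40.3. Of 18 targets of NRF2, 1 was higher, the thioredoxin reductase gene TXNRD1 (78 and 87.8 with genistein, 55.2 and 72.6 with estradiol), and 2 were lower, OSGIN1 and the thioredoxin gene TXN. Their differences were 0.38, -0.65 and -0.56, and 0.19, -0.47 and -0.31 without the first estradiol library. OSGIN1 stood at 16.3 and 19.1 with genistein and 31.7 and 24.6 with estradiol.

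Lists of stress, lipid and hormone genes were read beside 4.87% of all genes lower and 2.39% higher. Of 27 genes of amino acid stress and the unfolded protein response, 4 were lower and 0 higher (median -0.14). XBP1, the gene of a factor of that response that is also high in luminal cells, stood at 532.4 and 509.6 with genistein, 587.1 and 805.5 with estradiol and 363.9 and 305.0 with DMSO (log2 difference -0.40, 95% interval -0.72 to -0.08). Leaving out the first estradiol library gave -0.63, and leaving out the second gave -0.17. The chaperone gene SDF2L1 stood at 10.9 and 11.9 with genistein and 23 and 14.1 with estradiol, with a difference of -0.64 and of -0.29 without the first estradiol library. Of 25 interferon-induced genes, 3 were higher and 1 lower, the nuclease gene ISG20, at 0.836 and 0.775 with genistein and 1.43 and 2.02 with estradiol. The median of the list was 0.06, and 0.02 without the first estradiol library. Leaving that library out moved the 3 higher genes toward 0, IFIT1 from 0.53 to 0.40, SAMD9 from 0.34 to 0.17 and DDX58 from 0.34 to 0.25. It moved ISG20 away from 0, from -0.76 to -0.95. The 29 genes of sterol and fatty acid synthesis held 1 higher (median 0.09), and 7 higher without the first estradiol library (3.07% of all genes; median 0.23). The 24 heat shock genes held 1 lower, the 17 targets of the glucocorticoid and progesterone receptors 2 lower and the 18 genes of estrogen metabolism 1 lower, with 0 higher in each. Their medians were -0.11, -0.02 and -0.01 in that order. Without the first estradiol library the medians were -0.19, 0.01 and 0.05.

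Cell cycle, ribosome biogenesis and cofactor genes were read beside the same shares. Of 40 G1/S genes, 5 were lower and 0 higher at an unadjusted p under 0.05 (4.87% and 2.39% of all genes), with a median of -0.14, and 3 were lower without the first estradiol library (2.85% of all genes; median -0.08). The helicase gene MCM5 stood at 18.4 and 17.9 with genistein and 25 and 21.2 with estradiol, and RFC4, a clamp loader gene, at 23.6 and 23.4 and 29.2 and 29.5. Of 40 ribosome biogenesis genes, 6 were lower and 0 higher (median -0.15), and 2 were lower without the first estradiol library (2.85% of all genes; median -0.06). In this list 13 of 40 rose with estradiol against DMSO (2.1% of all genes) and 0 passed the test with genistein (0.781% of all genes), with median changes of 0.41 and 0.28. By library, the median was 0.25 and 0.33 with genistein and 0.44 and 0.39 with estradiol, above DMSO in all 4. NOP16 stood at 14.7 and 14.2 with genistein and 25.3 and 17.2 with estradiol, and its difference of -0.52 was -0.25 without the first estradiol library. Of 34 G2/M genes, 1 was higher, the spindle gene ASPM (34.3 and 48.1 with genistein, 25.1 and 30.1 with estradiol), and 2 were lower, with a median of -0.01. Without the first estradiol library the median was -0.03, and the ASPM difference went from 0.56 to 0.43. Of 34 steroid receptor and cofactor genes, 5 were higher and 0 lower (median 0.14), and 1 was higher without the first estradiol library (median 0.10). FOXA1, a pioneer factor gene, stood at 150.5 and 163.7 with genistein, 104.4 and 139.0 with estradiol and 171.0 and 170.6 with DMSO. The coactivator gene NCOA3 stood at 33 and 34.9, 21.9 and 29.9 and 34.6 and 39.5.

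Genes with short transcripts were lower with genistein mainly against the first estradiol library. Of 84 cytosolic ribosomal protein genes, 47 were lower with genistein at an unadjusted p under 0.05 (4.87% of all genes, median -0.44). Without that library their median was -0.26, and 81 of the 84 still had a negative difference, against 7014 of all 13827 genes. With length and GC trends removed, their median was -0.19. The 37 genes of complex I subunits held 9 lower (median -0.33). Without the first estradiol library their median was -0.17, and 31 of the 37 had a negative difference. The 76 mitochondrial ribosomal protein genes held 15 lower (median -0.21), and without that library their median was -0.12, with 64 negative. Almost all calls of these lists at an unadjusted p under 0.05 were lost without that library. That fit rests on the second library as the lone T-47D estradiol library. Over all genes, the median difference was -0.37 for 338 transcripts under 700 bases and 0.16 for 1757 transcripts over 6000 bases. Without the first estradiol library these medians were -0.12 and 0.06, and without the second -0.63 and 0.24. The first minus the second estradiol library correlated with GC content across 11240 genes (Pearson r = 0.726) and inversely with log2 length (r = -0.34), a description across genes, which are not replicates. The length trend was not particular to estradiol. For log2 length, r was -0.397 in the genistein pair, -0.345 in the DMSO pair and 0.042 in the T-47D bisphenol A pair. For GC content, r was 0.244, -0.013 and -0.416 in the same order. With length and GC trends removed, CITED1 had a difference of -1.16 (limma adjusted p = 0.0292), C19orf60 moved from -0.82 to -0.51 and C6orf127 from -0.71 to -0.38.

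**Figure D5:**
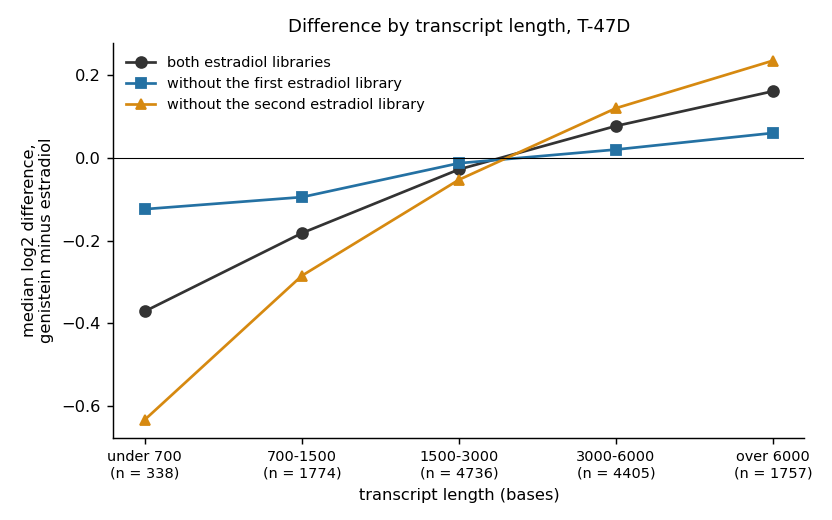
Median log2 difference of genistein minus estradiol in T-47D for 5 bins of transcript length in bases, with both estradiol libraries, without the first and without the second. The medians run from -0.37 in the shortest to 0.16 in the longest bin, and from -0.12 to 0.06 without the first estradiol library.

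Whether the difference between the compounds was particular to T-47D was asked of the same contrast in ECC-1. There, 0 genes (0%) differed between genistein and estradiol at an adjusted p under 0.05 in limma, with 387 at an unadjusted p under 0.05 (2.8%). The difference between the lines passed the adjusted limma test for 0 of 13827 genes (0%), with 1775 at an unadjusted p under 0.05 (12.8%), so no difference can be called particular to T-47D. The 1775 became 685 in a fit on the estradiol and genistein groups only, 769 with array weights and 2310 with the replicate block. The first ECC-1 estradiol library also stood apart, with a median correlation of 0.9873 against 0.9921 to 0.9966 for the other ECC-1 libraries. Without it, the median difference between the lines over all genes went from 0.034 to 0.019. That fit keeps 1 ECC-1 estradiol library, so the part of the omitted one in the 12.8% cannot be told from it. CITED1 was among the 8 genes with the lowest p in this test. It stood at 0.152 and 0.116 with genistein and 0.196 and 0.255 with estradiol in ECC-1 (difference between the lines -1.24, 95% interval -1.74 to -0.75, limma adjusted p = 0.369). AGR3, an anterior gradient gene of luminal cells, stood at 28.1 and 22.6 with genistein and 42.7 and 40 with estradiol in T-47D. In ECC-1 it stood at 0.497 and 0.502 and 0.071 and 0.347 (difference between the lines -1.23, limma adjusted p = 0.369). SEC14L2 stood at 1.62 and 2.5 with genistein and 1.53 and 1.87 with estradiol in ECC-1 (difference between the lines -1.26, limma adjusted p = 0.369). The 196 genes that estradiol raised in ECC-1 were chosen by their change in ECC-1. The filter and the spread behind that choice came from all 16 libraries, T-47D included, so the list is not independent of them. It had a median difference of -0.01 in T-47D, with 14 lower and 2 higher at an unadjusted p under 0.05 (4.87% and 2.39% of all genes). Against DMSO in T-47D, 27 of the 196 rose with estradiol (2.1% of all genes) and 15 with genistein (0.781% of all genes).

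How large a difference these libraries can show is read from the limma intervals, whose median reach to either side was 0.332 on the log2 scale. They rest on 1 spread for each gene, shared by all 8 groups. Across genes, the first minus the second library had a standard deviation of 0.411 for T-47D estradiol and 0.242 for T-47D genistein. It was 0.170 to 0.343 in the other groups. The intervals may therefore be too narrow for a comparison with the T-47D estradiol libraries. For 13502 of the 13827 genes (97.6%), the 95% interval of genistein minus estradiol lay within 1 of 0. All 19 genes with a difference beyond 1 were lower with genistein, and 8 of them were the digestive enzyme genes present in the second estradiol library. CITED1 was the 1 gene whose interval lay wholly beyond 1. Of the 291 genes raised by estradiol, 251 had an interval within 1 of 0, which bounds each difference and does not show that the compounds act alike.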

How the data were processed

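Messenger RNA from T-47D and ECC-1 cells gave 16 libraries, 2 for each of 8 groups. Libraries were made with a transposase and keep no strand, per the labels' protocols, so overlapping and antisense genes cannot be told apart. The authors deposited RPKM values for 32062 RefSeq transcripts per library. The submitters' processing notes name Bowtie and hg19, while the counting step was not given in the sources used here.

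Of the several rows of 5983 symbols, the one with the highest average was kept. Libraries were scaled by median ratios over 7547 genes that reached 5 RPKM everywhere (factors 0.938 to 1.054). A gene was tested if 2 or more libraries reached 1 RPKM. Values of log2(scaled RPKM + 0.5) were fitted with limma 3.58.1 (R 4.3.3) as 8 group means, with eBayes and a mean-variance trend (8 residual and 6.9 prior degrees of freedom). P-values are two-sided and Benjamini-Hochberg adjusted over all genes of a contrast (threshold 0.05). The procedure was tested on simulated data. Depth was estimated from steps in the RPKM values. In the 4 libraries only 62.6 to 63.6% of the values worth less than 10 reads came out whole (tolerance 0.1 read), too few to recover counts.

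Genes were named by rule: the 12 in each direction as described, the panel, the 8 lowest p of the line difference, the 12 strongest estradiol responses and the 8 strongest genistein responses per direction, and up to 4 list members by lowest p, of which some are printed. The members and lists were chosen with earlier results of these data known, and the ribosomal protein, complex I and digestive enzyme sets after the data were seen. Other scalings, pseudocounts, filters, weights, sample sets and a replicate block were tried. Each genistein and estradiol library was also left out in turn, those of ECC-1 for the difference between the lines only. No DMSO or bisphenol A library was left out singly.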

Additional observations from a re-analysis of the deposited data

How the results depend on the processing

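The count of genes differing between genistein and estradiol in T-47D, 1 as reported, was 0 with a pseudocount of 0.1, 0 with array weights, 0 where the average had to reach 5 RPKM, 0 in a fit on the estradiol and genistein groups only and 0 in a fit on the 8 T-47D libraries. It was 7 with no filter on low values, 3 with the replicate block and, in alternatives chosen after seeing the data, 4 with length and GC trends removed and 11 (7 higher, 4 lower) with both first estradiol libraries omitted. Leaving out 1 library gave 0 to 1884. The 1884 (904 higher, 980 lower) came without the second estradiol library, which leaves the first as the lone estradiol library, assumed to vary like the other groups, and the 0 without the first estradiol or the second genistein library. The difference between the lines, 0 as reported, was 3 with no filter and 0 to 1908 on leaving out 1 library, with 1908 without the second T-47D and 937 without the second ECC-1 estradiol library. Libraries of the genistein and estradiol groups with the same number deviated together with r = 0.24, and over the 6 pairs of T-47D groups r ran from -0.22 to 0.41, so the numbers were not taken as pairing. The replicate block called SLC47A1 and TFF1 beside CITED1 (limma adjusted p = 0.0192, 0.0192 and 0.00697). CITED1 ran from -2.04 to -1.07 over 16 alternatives, with limma adjusted p-values from 0.00142 to 1. Of 77 genes followed, 70 kept their direction in every alternative. The other 7 reversed: leaving out 1 library gave -0.23 to 0.294 for PGR, -0.112 to 0.363 for ESR1, -0.194 to 0.075 for CCND1, -0.052 to 0.504 for CXCR7, -0.184 to 0.321 for CYP2S1, -0.199 to 0.153 for TMPRSS2 and -0.092 to 0.602 for C2orf54. PGR was also -0.001 with no scaling and -0.186 with length and GC trends removed. With both first estradiol libraries omitted PGR was -0.23, ESR1 -0.112, CCND1 0.075 and CXCR7 -0.052. The cause was not tested.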

Other observations

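Of the 19 genes beyond 1 on the log2 scale, 8 encode digestive enzymes known mainly from the acinar cells of the pancreas. They were noticed in the results, and a list of 20 such genes was written afterwards. In the second estradiol library of T-47D, the trypsinogen gene PRSS1 stood at 3.62 scaled RPKM, the carboxypeptidase gene CPA1 at 2.83, the chymotrypsinogen gene CTRB2 at 3.07 and the lipase gene PNLIP at 2.18. In the first estradiol library they stood at 0.257, 0.263, 0.45 and 0.253, and in the genistein libraries none was above 0.272. PRSS1 and PRSS2, and CTRB1 and CTRB2, are near-identical pairs, so the division of reads within them is uncertain. Of the list, 13 genes passed the filter on low values and 0 the adjusted limma test. In T-47D, 12 of the 20 were above 1 scaled RPKM in the second estradiol library, 7 in the first bisphenol A library and 1 in each other library, so the direction of the difference was set by the library in which the genes were noticed.

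Summed over the 20 genes, the level was 31.2 scaled RPKM in the second estradiol library, 5.11 in the first and 4.78 and 3.71 in the genistein libraries. It was 15.8 in the first T-47D library of bisphenol A, the third compound of the series, 4.71 to 5.07 in the other 3 T-47D libraries and 14.3 to 45.7 in the 8 ECC-1 libraries, vehicle included. The sum was at most 0.00995% of all RPKM in a library. Its part in other differences between genistein and estradiol was not tested.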
